A study of Mus musculus with 8 samples.

Results

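The ATP-binding cassette (ABC) transporter genes were examined in primary hepatocytes of male C57Bl/6 mice kept on a high fat diet (HFD) or on normal chow. Genes were taken by symbol, Abc followed by a letter from a to g and a number. This gave 47 genes of the 20289 with a named probe, measured by 103 probes of the 45281 on the array. Where a gene had several probes, the one with the highest mean over the 8 arrays stood for it. 4 Illumina bead arrays held RNA of HFD hepatocytes (label numbers 8, 10, 11 and 12) and 4 that of chow hepatocytes (1, 2, 3 and 5). All cells had been plated in M199 medium that held dexamethasone at 400 nM, insulin at 100 nM, EGF at 1.5 nM and serum at 10%, were moved after 4 h to medium with 10 nM insulin, and were lysed 24 h later. The arrays therefore report cultured cells and not fresh liver. The sources used here do not give the age of the mice, the length of the diets or whether an array stands for 1 mouse, so p-values measure the spread between these arrays.

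ABC transporters spend ATP to carry lipids, bile constituents, drugs and metabolites across membranes. At the canalicular membrane of the hepatocyte, which faces the bile, the bile salt pump Abcb11, the phosphatidylcholine floppase Abcb4, the sterol transporter made of Abcg5 and Abcg8, and the conjugate exporter Abcc2 together form bile. At the basolateral membrane, which faces the blood, Abca1 hands cholesterol and phospholipid to apolipoprotein A-I, and Abcc3 and Abcc4 return conjugates and bile salts to the circulation. Other members serve mitochondria, lysosomes or peroxisomes, and the Abce and Abcf proteins lack a membrane domain and act in the cytosol, several of them in translation.

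Of the 47 genes 3 differed between the diets. Abcb4 and Abca3 rose and Abcc5 fell in HFD hepatocytes. A call means a Benjamini-Hochberg adjusted p below 0.05 over all genes in limma, a linear model with moderated variances. The 3 calls are 6.38% of the family, against 4.04% of all genes (1.47% higher and 2.57% lower in HFD), so the family's share lay near the background. The median difference, HFD minus chow on the log2 scale, was -0.004 for the family and -0.005 for all genes. At an unadjusted p below 0.05 there were 5 family genes, against 14.1% of all genes. In 6 members (12.8%) the 4 HFD arrays did not overlap the 4 chow arrays, as in 10.7% of all genes. Those were Abca3, Abcb4, Abcd4 and Abcg3, higher in HFD, and Abcc5 and Abcf3, lower in HFD; Abcg3 averaged 7.45 in HFD and 7.42 in chow, at the bottom of the scale, and is outside the rule for named genes. By subfamily, 1 of 16 Abca genes and 1 of 9 Abcb genes rose, 1 of 10 Abcc genes fell, and none of 2 Abcd, 1 Abce, 3 Abcf and 6 Abcg genes passed in limma, among which Abcd4 and Abcf3 had an unadjusted p below 0.05. By site, 1 of 8 canalicular genes rose, 1 of 6 basolateral genes fell and 1 of 33 others rose.

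**Figure D1:**
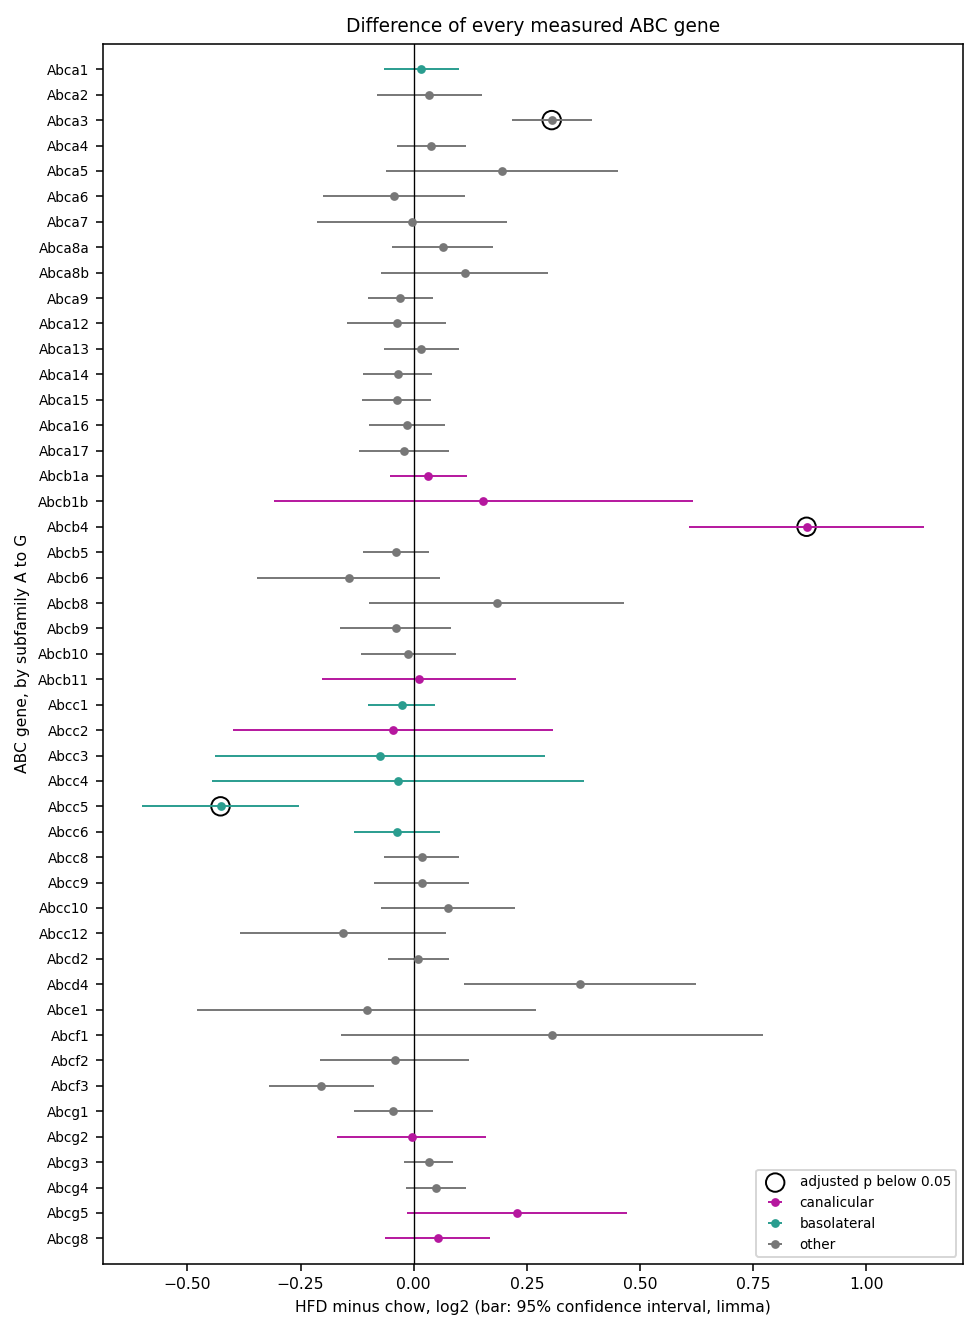
Difference of each of the 47 ABC genes, HFD minus chow in log2 units (horizontal axis), with 95% confidence intervals from limma, listed by subfamily and coloured by site; open circles mark an adjusted p below 0.05. Abcb4 (0.87) and Abca3 (0.30) lie to the right and Abcc5 (-0.43) to the left, while most intervals cross 0.

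The levels below are the deposited log2 values. The lowest value on the arrays was 7.23, the median of all probes 7.51 and the upper quartile 7.97. Of the members 30 had a mean below that quartile, between 7.43 and 7.89, where a fall can hardly be seen and a rise is understated. The other 17 lay above it and held all 3 calls. The third chow array stood apart from the rest, with r = 0.946 to 0.952 to the other 7 arrays over all probes, against 0.989 to 0.997 among those. Among the 4 chow arrays it was the highest in 25 members and the lowest in 9. Differences are therefore given with and without it where it matters. Of 10 hepatocyte markers, Apoa2 averaged 14.73 in HFD and 14.75 in chow and Ttr 13.99 and 14.25, while the probes of Tat and Fgb read below the upper quartile on every array and that of Alb averaged 8.17 in HFD and 8.37 in chow.

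The sequence just upstream of the start of the 3 called genes and of the bile salt pump is shown, because these windows hold the region in which promoter elements of such genes lie. They are RefSeq windows of mouse build GRCm38.p6, 250 bases up to the base before the annotated start, written 5′ to 3′ on the strand of the gene. Capitals mark a GC box (GGGCGG, either strand) in Abcb4 and Abca3, and in Abcb11 an inverted repeat of GGNCA with 1 base between the copies, a relaxed form of the element bound by the bile acid receptor FXR. Abcb4 lies at chr5:8893471-8893720 on the plus strand, Abca3 at chr17:24351773-24352022 on the plus strand, Abcc5 at chr16:20426395-20426644 on the minus strand and Abcb11 at chr2:69342617-69342866 on the minus strand.
Abcb4: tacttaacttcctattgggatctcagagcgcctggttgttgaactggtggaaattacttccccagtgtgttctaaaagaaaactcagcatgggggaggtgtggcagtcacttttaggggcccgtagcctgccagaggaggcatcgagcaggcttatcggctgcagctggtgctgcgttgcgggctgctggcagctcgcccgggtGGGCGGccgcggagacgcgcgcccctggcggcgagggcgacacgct
Abca3: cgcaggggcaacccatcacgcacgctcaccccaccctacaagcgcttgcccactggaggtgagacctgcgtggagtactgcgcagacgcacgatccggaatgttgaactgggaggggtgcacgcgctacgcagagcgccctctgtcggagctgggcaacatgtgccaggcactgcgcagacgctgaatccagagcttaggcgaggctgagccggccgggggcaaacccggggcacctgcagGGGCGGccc
Abcc5: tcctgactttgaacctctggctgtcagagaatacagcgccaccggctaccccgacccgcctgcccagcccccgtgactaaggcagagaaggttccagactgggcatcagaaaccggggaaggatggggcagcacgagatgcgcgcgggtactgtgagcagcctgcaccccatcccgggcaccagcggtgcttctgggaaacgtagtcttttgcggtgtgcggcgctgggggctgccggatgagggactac
Abcb11: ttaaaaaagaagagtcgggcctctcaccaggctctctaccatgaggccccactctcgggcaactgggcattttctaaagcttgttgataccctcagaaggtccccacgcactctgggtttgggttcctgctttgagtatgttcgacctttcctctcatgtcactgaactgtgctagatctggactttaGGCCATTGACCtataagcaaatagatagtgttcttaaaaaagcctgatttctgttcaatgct

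The upstream windows of the called genes were rich in G and C, at 61.6% in Abcb4, 67.6% in Abca3 and 64.0% in Abcc5, against 46.4% in Abcb11 and a median of 52.4% over all 32851 windows. The GC box began 46 bases before the start in Abcb4 and 9 before it in Abca3. It occurred in 46.5% of the 43 ABC windows, which belong to 37 of the 47 genes, and in 32.7% of all windows. The strict element, an inverted repeat of AGGTCA with 1 base between the copies, was found in no ABC window (0 of 43) and in 2 of all windows. The relaxed form, chosen after the Abcb11 sequence was seen, lay 62 to 52 bases before the Abcb11 start and also occurred upstream of Abcc12, in 2 of the 43 ABC windows (4.65%) against 0.575% of all. Every strict match is also a relaxed one, and the strict repeat contains the receptor hexamer AGGTCA. In Abcb11 the relaxed repeat overlapped that hexamer on the other strand. The hexamer was in 16.3% of ABC windows and 14.0% of all, on either strand as for each motif. A core of the antioxidant response element, TGACNNNGC, was upstream of Abcc2, Abcc4 and Abcc10 (9.30% of ABC windows, 10.2% of all), and not in the window of Abcc5. CCAAT was in 30.2% of ABC windows and 33.8% of all, and TATAAA in 11.6% of ABC windows and 12.4% of all. A direct repeat of AGGTCA with 4 bases between the copies, the element of the oxysterol receptor LXR, was in 0 of 43 ABC windows and 0.0152% of all. A match describes letters in the window and not a used site.

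Abcb4, the floppase that loads phosphatidylcholine into bile, had the largest difference of the family. Its level was 9.79, 9.59, 9.65 and 9.73 on HFD arrays 8, 10, 11 and 12, against 8.67, 8.80, 9.17 and 8.65 on chow arrays 1, 2, 3 and 5. Every HFD array lay above every chow array, and the third chow array was the nearest to them. The means were 9.69 ± 0.09 in HFD and 8.82 ± 0.24 in chow (SD, n = 4 each), which differ by 0.87 or 1.82-fold. The SE was 0.113, the 95% confidence interval 0.61 to 1.13 and limma's adjusted p 0.00540. Without the third chow array it was 0.98 (adjusted p = 4.37e-05). The call held under each of the alternatives tried, with a difference of 0.81 to 0.98 when any array was left out. Abcb4 was measured by 1 probe.

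The 2 P-glycoprotein genes, Abcb1a and Abcb1b, lie next to Abcb4 in the gene order of the annotation and encode multidrug exporters. They are close relatives, and whether the Abcb1b probe also takes up Abcb1a transcript was not tested. Abcb1b read 10.55, 10.29, 10.30 and 10.06 in HFD, against 9.95, 9.90, 10.76 and 9.97 in chow. The HFD arrays lay above 3 of the chow arrays, while the third chow array exceeded all of them. Its difference was 0.15 (95% confidence interval -0.31 to 0.62, adjusted p = 0.843), and 0.36 without that array (adjusted p = 0.0574). The only Abcb1a probe stayed near the bottom of the scale on these same arrays, at 7.45 ± 0.05 in HFD and 7.42 ± 0.04 in chow (SD, n = 4 each).

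The bile salt export pump Abcb11 did not measurably differ. It read 8.89, 8.63, 8.86 and 8.72 in HFD, against 8.76, 8.75, 8.57 and 8.98 in chow, and the groups overlapped throughout. The difference was 0.01, with an interval of -0.20 to 0.23, which corresponds to folds between 0.869 and 1.17. Abcc2, which exports bilirubin glucuronide and other conjugates, read 10.11, 10.07, 10.34 and 10.26 in HFD, against 10.02, 10.40, 9.92 and 10.61 in chow. Its interval of -0.40 to 0.31 allows folds between 0.758 and 1.24 (adjusted p = 0.953), and its second probe differed by 0.11. These intervals leave out a rise of the size measured for Abcb4, whose interval began at 1.52-fold.

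Abcg5 and Abcg8 encode the subunits of the biliary sterol transporter and are transcribed away from each other, so that 209 bases of their 300-base RefSeq promoter windows are shared. Abcg5 read 8.61, 8.58, 8.63 and 8.53 in HFD, against 8.38, 8.33, 8.64 and 8.07 in chow. The HFD arrays lay close together and above all chow arrays except the third. The difference of 0.23 (interval -0.01 to 0.47) was not called (adjusted p = 0.395). With the third chow array left out it was 0.32 and called (adjusted p = 0.0244). Abcg8, measured by 1 probe, averaged 7.55 ± 0.06 in HFD and 7.49 ± 0.08 in chow, near the bottom of the scale, where a difference could hardly be measured. The 1 probe of Abcg2, the canalicular exporter of urate and sulfate conjugates, was as dim at 7.57 ± 0.02 in HFD and 7.58 ± 0.16 in chow.

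Abcc5 was the basolateral gene that differed. It exports cyclic nucleotides and other organic anions. Its level was 7.96, 7.96, 8.03 and 8.09 in HFD, against 8.38, 8.36, 8.67 and 8.35 in chow, so every HFD array lay below every chow array and the third chow array was the farthest away. The means were 8.01 ± 0.06 in HFD and 8.44 ± 0.15 in chow (SD, n = 4 each). The difference was -0.43 (SE 0.075, interval -0.60 to -0.25, adjusted p = 0.0190 by limma), or 0.744-fold. The call was lost without HFD 8 (adjusted p = 0.0650), HFD 10 (0.0722) or HFD 11 (0.0599). Its second probe lay near the bottom of the scale and differed by 0.04, and the mean of both probes fell by 0.19 (adjusted p = 0.0120). In the same HFD arrays 8 of 20 markers of macrophages were called lower and 12 were not called, as given below. In such mixed RNA, fewer cells of a type and less RNA per cell cannot be told apart, and the part of those cells in the Abcc5 difference was not tested.

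The other basolateral exporters did not pass. Abcc3, which sends glucuronides and bile salts to the blood, read 11.99, 11.64, 11.96 and 11.66 in HFD, against 11.56, 11.73, 12.24 and 12.03 in chow. The groups overlapped, with a difference of -0.07 and an interval of -0.44 to 0.29. Abcc4, an exporter of cyclic nucleotides and bile salts, read 10.45, 9.91, 10.24 and 9.95 in HFD, against 9.91, 10.32, 10.54 and 9.91 in chow. Its interval ran from -0.45 to 0.38. Both genes varied within each diet by more than they differed between the diets, and both had a positive difference without the third chow array (0.04 and 0.09). The probes used for Abca1, Abcc1 and Abcc6 stayed near the bottom of the scale. Abca1 and Abcc6 had 1 probe each, and a low transcript level and a weak probe cannot be told apart here. Abca1 averaged 7.44 ± 0.06 in HFD and 7.42 ± 0.03 in chow, Abcc1 7.51 ± 0.03 and 7.54 ± 0.04, and Abcc6, needed for the release of ATP from hepatocytes, 7.66 ± 0.06 in HFD and 7.70 ± 0.05 in chow.

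**Figure D2:**
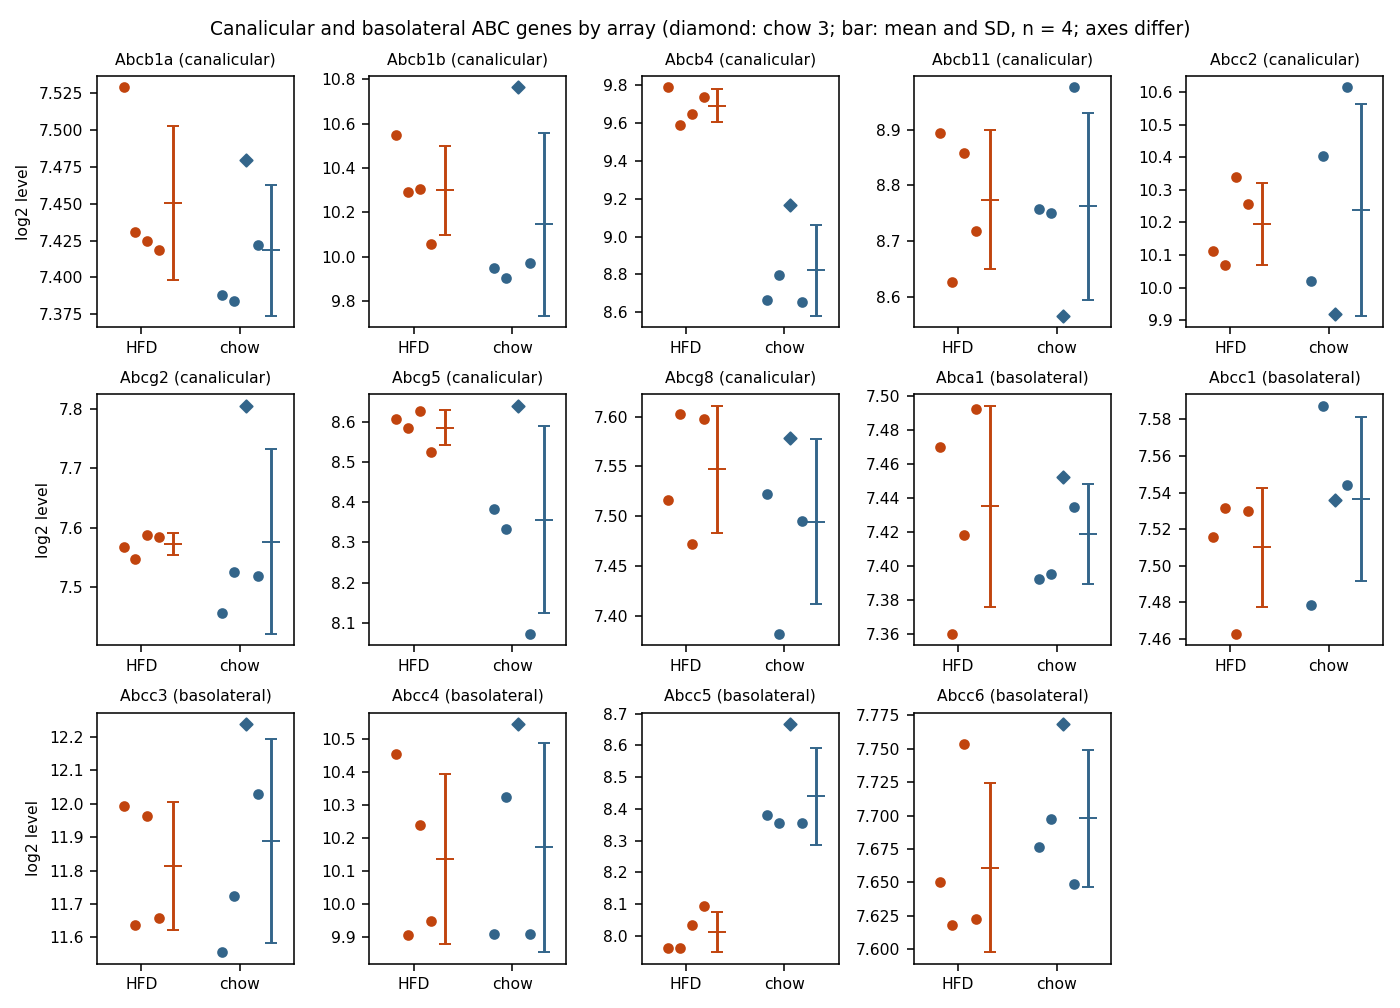
Log2 level (vertical axis, a scale of its own in each panel) of the 8 canalicular and 6 basolateral genes on the 4 HFD and 4 chow arrays, with mean and SD; the diamond is the third chow array. The groups separate in Abcb4 (means 9.69 in HFD and 8.82 in chow) and Abcc5 (8.01 in HFD and 8.44 in chow) and overlap in the others.

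Abca3, best known as the phospholipid transporter of lung surfactant, was the third gene called. Its level was 11.06, 11.03, 11.04 and 11.10 in HFD, against 10.75, 10.78, 10.81 and 10.66 in chow. Both groups were tight and did not overlap, and the third chow array did not stand apart. The means were 11.06 ± 0.03 in HFD and 10.75 ± 0.07 in chow (SD, n = 4 each), a difference of 0.30 (SE 0.038, interval 0.22 to 0.39, adjusted p = 0.00479 by limma) or 1.24-fold. The size depends on the probe. A second Abca3 probe read 9.95, 9.70, 9.97 and 9.76 in HFD, against 9.72, 9.45, 10.25 and 9.77 in chow. It differed by 0.05, and by 0.20 without the third chow array, where the used probe differed by 0.325. The remaining probe averaged 7.73 in HFD and 7.62 in chow, below the upper quartile. It differed by 0.11, and by 0.05 without that array. The mean of the 3 probes differed by 0.15 and was not called (adjusted p = 0.247), nor was the used probe with trend and robust settings (adjusted p = 0.0552). Abca17, the neighbour of Abca3 in the gene order, lay near the bottom of the scale and differed by -0.02.

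**Figure D3:**
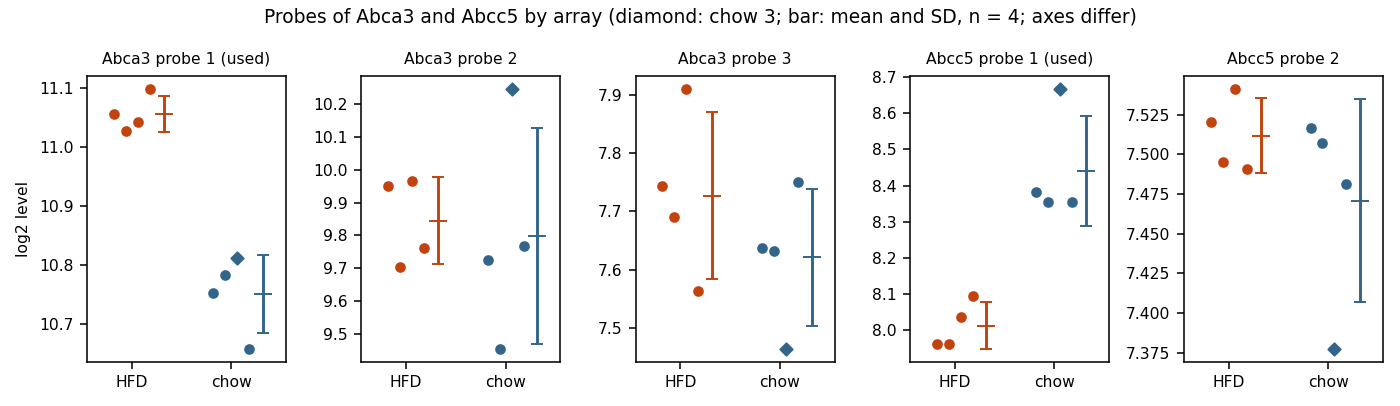
Log2 level (vertical axis, a scale of its own in each panel) of the 3 probes of Abca3 and the 2 of Abcc5 on the HFD and chow arrays, with mean and SD (n = 4 each); the diamond is the third chow array. In each gene the used probe separates the diets (11.06 in HFD and 10.75 in chow for Abca3) and the others do not.

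The members grouped here under mitochondria, lysosomes or endosomes, peroxisomes and cytosol gave no call over all 8 arrays. Abca3 was grouped with the members of further membranes or tissues. Abcd4, which is needed for the release of cobalamin from lysosomes, read 8.15, 8.22, 8.21 and 8.26 in HFD, against 7.95, 7.98, 7.48 and 7.97 in chow. All HFD arrays lay above all chow arrays, with the third chow array far below the others. The difference of 0.37 missed the threshold (adjusted p = 0.146). With that array left out it was 0.24 and passed (adjusted p = 0.00388). Its other 2 probes differed by -0.10 and 0.05. Abcf3, a cytosolic ABC ATPase, read 10.09, 10.00, 10.04 and 9.97 in HFD, against 10.16, 10.16, 10.35 and 10.24 in chow. The groups did not overlap, but the difference of -0.20 missed the threshold (adjusted p = 0.0747). With the third chow array left out it was -0.16 and passed (adjusted p = 0.0432). Its second probe differed by -0.09.

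Abcf1, a factor of translation and innate immunity, averaged 11.29 ± 0.12 in HFD and 10.99 ± 0.45 in chow (SD, n = 4 each). The third chow array read 10.33 and the other chow arrays 11.08 to 11.27, and the difference was 0.31 with that array and 0.09 without it. Abcf2 averaged 10.91 ± 0.07 in HFD and 10.96 ± 0.14 in chow; the used probe differed by -0.04, and by -0.10 without the third chow array. Of its other 3 probes, 2 read 7.41 and 7.43 on the third chow array and 9.91 to 10.32 on the other chow arrays. These 2 differed by 0.73 and 0.49 over all arrays, and by 0.02 and -0.16 without that array. The ribosome recycling factor Abce1 averaged 8.76 ± 0.22 in HFD and 8.86 ± 0.30 in chow, a difference of -0.10 that was 0.03 without the third chow array. Abcb6, a porphyrin transporter, averaged 8.91 ± 0.02 in HFD and 9.05 ± 0.19 in chow, a difference of -0.14 that was -0.07 without that array. None of these 4 passed in limma over all arrays or without the third chow array, and none had an unadjusted p below 0.05 over all arrays. The remaining 26 members, all with means of 7.43 to 8.27, differed by -0.16 to 0.19, with an adjusted p of 0.533 or more. They include Abcg1, the sterol transporter of macrophages, which averaged 7.43 in HFD and 7.47 in chow.

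Without the third chow array 9 members were called, 7 higher and 2 lower in HFD, and all 3 genes called over the 8 arrays were among them. This is 19.1% of the family, against 9.17% of all genes (4.84% higher and 4.34% lower). The 6 added were Abcg5, Abcd4 and Abcf3, described above, and Abcb8, Abca5 and Abca8b, which fall outside the rule for named genes and were chosen after their values were seen. Abcb8, a transporter of the mitochondrial inner membrane, read 8.33, 8.36, 8.38 and 8.36 in HFD, against 7.92, 8.03, 8.55 and 8.19 in chow. The third chow array lay above the HFD arrays and the other 3 below them. Its difference was 0.18 with that array and 0.31 without it (adjusted p = 0.0131). Abca5 differed by 0.19 and 0.30 (adjusted p = 0.0294) in the same way, and Abca8b by 0.11 and 0.20 (adjusted p = 0.00965), both at a mean below 7.97. The remaining Abcb8 probes differed by 0.26, 0.13 and -0.003 over all arrays. The first of these read higher on every HFD array than on any chow array but was not called (limma, adjusted p = 0.186 over all probes). Without the third chow array, which read lowest of chow on each of them, they differed by 0.19, 0.055 and -0.02. The second Abca5 probe differed by 0.02 and the remaining Abca8b probes by 0.08 and 0.05 without that array. Each of the 8 arrays was left out in turn, and why this one stood apart was not tested.

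**Figure D4:**
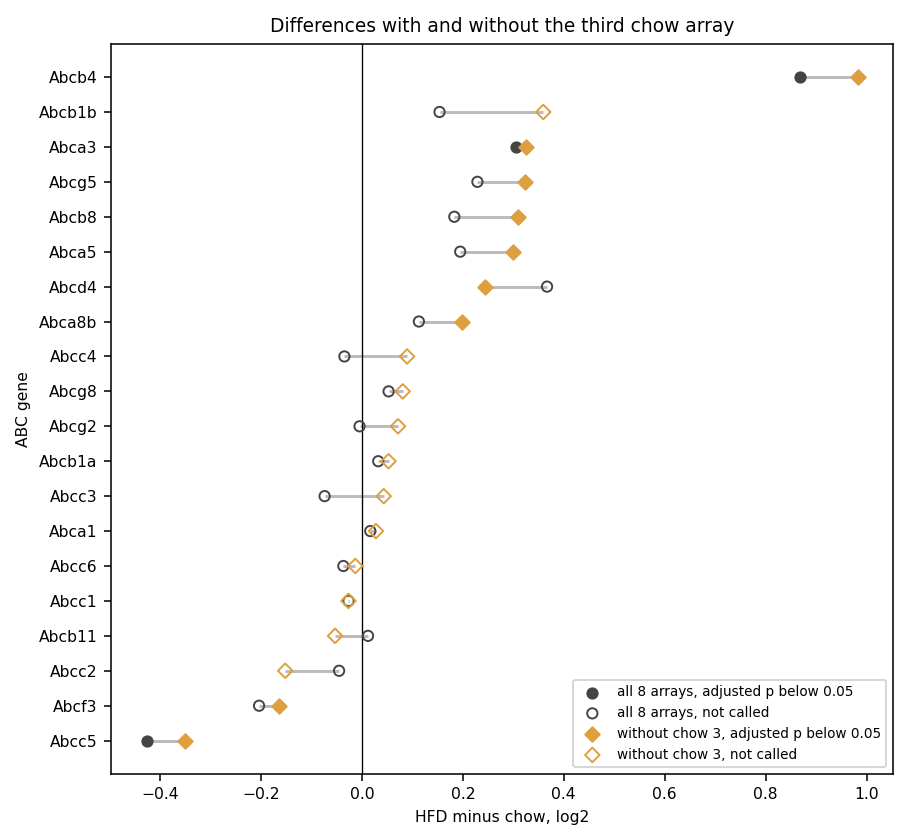
Difference of the canalicular, basolateral and otherwise called ABC genes, HFD minus chow in log2 units (horizontal axis), over all 8 arrays (circles) and without the third chow array (diamonds); filled symbols have an adjusted p below 0.05. 3 circles and 9 diamonds are filled, and the largest difference, that of Abcb4, moves to 0.98 without that array.

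Regulators and partners of the transporters were read from lists. Over all genes 1.47% were called higher and 2.57% lower in HFD, and without the third chow array 4.84% and 4.34%. The counts of called list genes given below stand beside these shares. Of 18 measured regulators 1 rose and 1 fell (list median 0.05), and with the third chow array left out there were 3 rises and 2 falls (median 0.02). The 3 added, chosen after their values were seen, were Pparg (0.45, adjusted p = 0.0158), Nr5a2 (0.23, adjusted p = 0.0101) and Gps2 (-0.25, adjusted p = 0.00929). Nr1h4, which encodes the bile acid receptor FXR, a known activator of Abcb11 and Abcb4, read 9.77, 9.83, 10.01 and 9.85 in HFD, against 10.76, 10.46, 10.74 and 10.86 in chow. The groups did not overlap, and the difference was -0.84 (SE 0.089, adjusted p = 0.00205 by limma). The fall of Nr1h4 and the rise of Abcb4 stood in the same arrays in which Abcb11 did not measurably differ. A relation between the levels of these 3 genes was not tested, and the activity of the receptor was not measured. Nr1i2, which encodes the drug-sensing receptor PXR, averaged 8.32 ± 0.13 in HFD and 7.89 ± 0.11 in chow (SD, n = 4 each) and rose by 0.43 (adjusted p = 0.0206). It lost its call without chow 1 (adjusted p = 0.0584), chow 2 (0.0684), HFD 8 (0.0530), HFD 10 (0.0527) or HFD 12 (0.0761). The probes of Nr0b2, an FXR target, and Nr1i3, the drug-sensing receptor CAR, were below the upper quartile on every array.

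Of 25 measured partners, among them scaffolds and traffic proteins of the canalicular membrane, none passed in limma, and 4 had an unadjusted p below 0.05 (list median 0.01). The list also held Tap1, Tap2 and Cftr, ABC proteins whose symbols fall outside the rule by which the family was taken. Slc9a3r1, a scaffold that binds the tail of membrane transporters, averaged 11.16 ± 0.10 in HFD and 11.66 ± 0.25 in chow, a difference of -0.50 (adjusted p = 0.0661) that passed when the third chow array was left out (-0.38, adjusted p = 0.00534). Tapbp, chosen after its values were seen, likewise passed with it left out (-0.66, adjusted p = 0.00583), so that without that array 2 of the 25 partners fell. Rab11a, a GTPase of recycling vesicles, differed by 0.26 (adjusted p = 0.0682). Of 11 other hepatobiliary carriers 1 rose (list median 0.03), and 7 were below the upper quartile on every array, where a difference could hardly be measured. The carrier that rose was Slco1b2, an organic anion uptake carrier of the basolateral membrane. It averaged 8.17 ± 0.06 in HFD and 7.72 ± 0.14 in chow, a difference of 0.45 (adjusted p = 0.00988). Over the mean of its probes the difference was 0.17 (adjusted p = 0.00851).

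Of 20 macrophage markers 8 fell and 0 rose in HFD, with a median difference of -0.64, and with the third chow array left out 12 fell, again with 0 rises. Over all genes 2.57% fell, and 4.34% with that array left out. The mean log2 level over these 20 was 7.89 to 8.12 on HFD arrays and 8.60 to 8.68 on chow arrays. Over all 8 arrays Fcer1g (-1.84), Laptm5 (-1.46) and Adgre1 (-1.11) had the largest differences among those called; over the mean of its probes Adgre1 differed by -0.69. Lyz2, chosen after its values were seen, was not called over all arrays (-0.92, adjusted p = 0.526) and was called at -1.49 once the third chow array was left out (adjusted p = 0.00183). Over all arrays 17 of the 20 differences were negative and 3 positive. Clec4f and Vsig4, chosen after their values were seen, were not called by limma. Clec4f differed by 0.12 (adjusted p = 0.651) and Vsig4 by -0.35 (adjusted p = 0.651). Cd5l, Ptprc, Timd4, Cybb and Aif1 were below the upper quartile on every array. Of 15 sinusoidal endothelial markers 4 fell and 0 rose, among them Fcgr2b (-1.37, and -0.40 over the mean of its probes), Lyve1 (-0.80) and Cdh5 (-0.78). With that array left out there were 8 falls and 1 rise. The one that rose was Clec4g, chosen after its values were seen, with a difference of 0.33 (adjusted p = 0.00769), against 0.22 over all arrays (adjusted p = 0.470). Stab1 also had a positive difference that was not called (0.22, adjusted p = 0.634). The list had a median of -0.22 and a mean level of 7.82 to 7.88 on HFD arrays and 8.07 to 8.22 on chow arrays. Of 14 genes listed for stellate cells and fibroblasts Sparc (-0.89, and -0.50 over the mean of its probes) and Bgn (-0.35) fell (list median -0.03). The other 12 were below the upper quartile on every array. They were Des, Lrat, Rgs5, Pdgfrb, Col1a1, Col1a2, Col3a1, Acta2, Dcn, Lum, Reln and Hand2. The Cdh5 call held with chow 1 or chow 3 left out and was lost with each of the other 6 arrays left out (adjusted p 0.0604 to 0.125). That of Bgn held with chow 3 or chow 5 left out and was lost with each of the other 6 (adjusted p 0.0688 to 0.121). Of 8 bile duct markers Cldn4 (0.58) and Tspan8 (0.27) rose and 0 fell (list median 0.02), with 4 positive and 4 negative differences. Below the upper quartile on every array were 6 of the 8, Tspan8 among them. Sox9, at a higher level, differed by -0.23 and was not called. Of 10 hepatocyte markers Cps1 (0.51), an enzyme of the urea cycle, rose and 0 fell (list median 0.006), with 5 positive and 5 negative differences. None of 8 lymphocyte markers passed in limma or had an unadjusted p below 0.05. The smallest p-values were those of Ms4a1 (-0.04) and Cd4 (-0.09). All 8 were below the upper quartile on every array, where a difference could hardly be measured. The part of these cells in the differences of ABC genes was not tested.

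**Figure D5:**
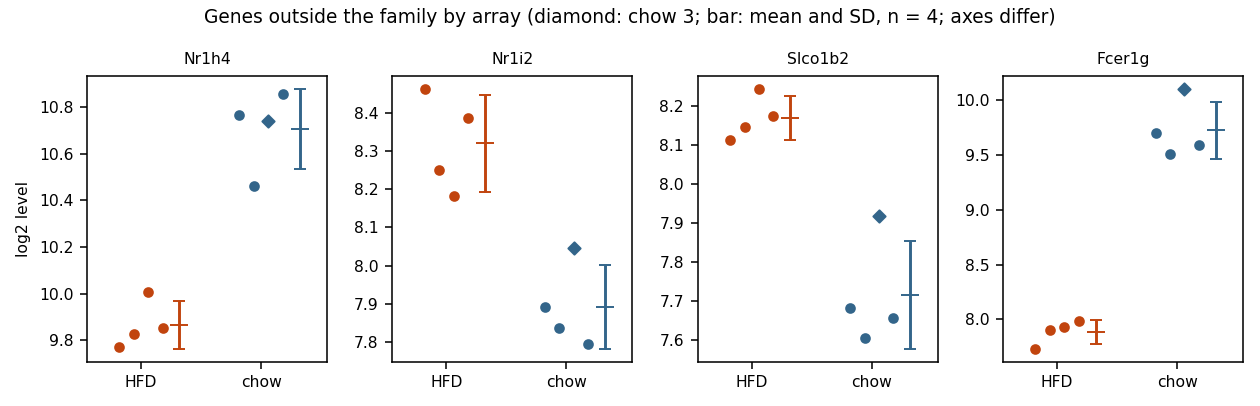
Log2 level (vertical axis, a scale of its own in each panel) of the receptor genes Nr1h4 and Nr1i2, the uptake carrier Slco1b2 and the macrophage marker Fcer1g on the HFD and chow arrays, with mean and SD (n = 4 each); the diamond is the third chow array. Nr1h4 and Fcer1g are lower and Nr1i2 and Slco1b2 higher on every HFD array than on any chow array.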

How the data were processed

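The table analysed holds log2 values of 45281 probes on 8 single-colour Illumina arrays, deposited by the authors, who used lumi per the submitters' processing notes; the sources used here do not give its version, its steps or a genome build. That the scale is log2 follows from the range of the values. Sorted columns differed from their mean by at most 0.0026, so the arrays came with 1 common distribution, which was kept; whether the scale is variance-stabilised is unknown. Detection p-values were not used here. All 8 value columns were used, leaving 0.

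Probes were named from the platform annotation, updated through RefSeq names of assembly GRCm38.p6: 35784 probes had 1 symbol, 0 several and 9497 none. Of the 103 ABC probes 6 bore another symbol in the annotation, and 28 of the 47 genes had more than 1 probe. Some family members are not reported here. The diets were compared by lmFit and eBayes of limma 3.58.1 (R 4.3.3, two-sided) on 20289 genes with Benjamini-Hochberg adjustment over all of them and a threshold of 0.05; the code was tested on simulated data. The number of arrays limits the precision. Members, sites and the 9 context lists (129 of 136 genes measured) were chosen with earlier results of these data known. Named were all called, canalicular and basolateral genes; other members with an unadjusted p below 0.05 or a mean of at least 8.5; and from each list up to 3 called genes by size, or the 2 with the smallest p. Alternatives were trend and robust settings, array weights, repeated quantile normalization, the mean of a gene's probes, each probe on its own, 2 filters on dim genes, each array left out and, added after seeing the data, annotation symbols without the update. Python 3.11.15 with matplotlib 3.10.9 drew the figures.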

Additional observations from a re-analysis of the deposited data

Results flagged for a closer look

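Samples far from the other 3 of their diet were looked for in 78 sets of 4 arrays (39 genes in both diets), and 8 were found. Chance alone gives about 1 in 20. On the third chow array Abcb1b read 10.76 (the other chow arrays 9.90 to 9.97), Abcc5 8.67 (8.35 to 8.38), Abcd4 7.48 (7.95 to 7.98) and Cd4 7.80 (7.59 to 7.61). Abcb1a read 7.53 on HFD 8 (7.42 to 7.43 on the other HFD arrays), near the bottom of the scale. Cps1 read 8.18 on chow 1 (at least 8.44 on the other chow arrays), Lyve1 8.21 on chow 5 (8.65 to 8.73) and Ms4a1 7.42 on HFD 11 (7.46 to 7.47).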

How the results depend on the processing

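Abcb4 kept its direction and its call under all 14 alternatives tried for it, and Abca3 and Abcc5 kept their direction. Over all genes 820 were called, 1603 with array weights and 447 to 1861 with 1 array left out. Of the ABC genes 3 were called, 8 with array weights (6 higher, 2 lower, all 3 among them) and 2 to 9 with 1 array left out. Of the genes on the 9 lists 20 were called, 34 with array weights and 14 to 34 with 1 array left out. Differences near 0 turned their sign in places, none of them called. With 1 array left out Abca1 ran from -0.0026 to 0.042, Abcb11 from -0.053 to 0.083, Abcc2 from -0.15 to 0.080, Abcc3 from -0.18 to 0.043, Abcc4 from -0.14 to 0.090, Abce1 from -0.21 to 0.029 and Abcg2 from -0.045 to 0.072. Under array weights Abcb11 was -0.025, Abcc3 0.044, Abcc4 0.0093 and Abcg2 0.057. Repeated quantile normalization gave 0.012 for Abcg2, and averaging probes 0.032 for Abcc2 and 0.32 for Abcf2. The Abcf2 value rests on 2 of its 4 probes, which read 7.41 and 7.43 on the third chow array and 9.91 to 10.32 on the other chow arrays. For the others the cause was not tested. No paired analysis was possible because the diets share no replicate number in the labels. Signal close to the floor of the scale limits what 30 of the 47 genes can show.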
